A study of Caenorhabditis elegans with 46 samples.

Results

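The genes *mes-2*, *mes-4*, and *set-21* encode histone methylation proteins, and the DRM complex occupied the promoters of all 3 in wild-type (WT) late embryos of *C. elegans*. Without the pocket protein LIN-35, the *mes-2* and *set-21* promoters still had peaks of all 6 other subunits profiled, among the highest of nearly every list, whereas the *mes-4* promoter had no DPL-1, EFL-1, or LIN-37 peak and only low peaks of the other MuvB subunits profiled. The genes were chosen by name, by looking up their rows in the study's assignment of DRM sites to genes, and are 3 of the 1515 genes with a DRM site in their promoter. Each has 1 site, with WT peaks of all 7 subunits profiled, as at 1346 of the 1418 DRM sites (94.9%). That of *mes-2* (WBGene00003220, chromosome II) and that of *mes-4* (WBGene00003222, chromosome V) lie in promoters of single genes, and that of *set-21* (WBGene00021282, chromosome IV) lies in a bidirectional promoter shared with *rpl-7A*, a gene for a protein of the large ribosomal subunit.

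DRM is the worm form of the mammalian DREAM repressor. The E2F-DP heterodimer of EFL-1 and DPL-1 and the MuvB subunit LIN-54 contact DNA, and LIN-35 bridges E2F-DP and MuvB, whose further subunits are LIN-52, LIN-37, LIN-9, and the histone-binding protein LIN-53. LIN-53 was not profiled, so counts of subunits here leave it out. MES-2 is the worm ortholog of Enhancer of zeste, the catalytic subunit of Polycomb repressive complex 2, and works with MES-3 and MES-6 to methylate lysine 27 of histone H3, a mark of repressed chromatin. MES-4 is related to the mammalian NSD proteins and methylates lysine 36 of histone H3 on genes that were active in the germline. Mothers that lack MES-2 or MES-4 have sterile offspring, and the germline genes that somatic cells of DRM mutants turn on need MES-4. SET-21 has a SET domain, the catalytic fold of most histone lysine methyltransferases.

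ChIP-seq, which sequences the DNA that an antibody to a chromatin protein pulls down, was done on whole late embryos of *lin-35(n745)* and of N2, the WT strain. The *n745* allele is protein null. The *lin-35* null cultures were grown for 96 h and the WT cultures for 72 h, and the harvested embryos were aged for up to 3.5 h. The labels give 18 *lin-35* null libraries, 3 for each of the 6 profiled subunits other than LIN-35, and 18 WT libraries, 3 for each of 5 subunits, 2 for LIN-35, and 1 for LIN-37, whose WT list also draws on libraries of an earlier study. All *lin-35* null libraries were made with a newer library kit, but most WT libraries with an older, gel-selected protocol, so that genotype, culture time, and protocol cannot be told apart in what follows. All replicates of a subunit in a genotype went into 1 deposited list of peaks, and these 13 lists are the data used here. They hold no value of a single replicate and no read counts, so the depth is unknown, no error can be given, and no test of a difference between genotypes was possible. The study reports that the signal of a *lin-35* null replicate appears unusually high beside that of the others. Since each *lin-35* null list combines all replicates of its subunit, how far its peaks, ranks, and signal values depend on that replicate was not tested. A peak that is missing from a list may still have bound protein below the list's threshold. Since whole embryos were used, binding in fewer cells and weaker binding in each cell cannot be told apart either.

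Each peak in a list has a position, a summit, and the SPP signal value, the peak caller's measure of its height. Signal values have no stated scale that is shared between lists. Each peak was therefore given its rank in its own list, where 1 is the highest signal value, and its percentile, where the highest peak has 100. The *lin-35* null lists hold 995 DPL-1 and 783 EFL-1 peaks, and 1225 LIN-54, 1388 LIN-52, 927 LIN-37, and 1674 LIN-9 peaks. The WT lists hold 1771 DPL-1, 2119 EFL-1, and 2291 LIN-35 peaks, and 2290 LIN-54, 2284 LIN-52, 2111 LIN-37, and 2067 LIN-9 peaks. The rank at a site is that of the highest peak in the list that overlaps the 500 bp site by at least 1 bp.

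At *mes-2*, all 6 subunits had a *lin-35* null peak. For comparison, *lin-35* null peaks of all 6 were found at 576 of the 1418 DRM sites (40.6%), and by subunit at 56.6% of the sites for DPL-1, 46.9% for EFL-1, 62.6% for LIN-54, 65.7% for LIN-52, 52% for LIN-37, and 70.0% for LIN-9. In the *lin-35* null lists, the *mes-2* peak ranked 3 for both LIN-9 and LIN-52, 5 for both LIN-37 and LIN-54, 9 for DPL-1, and 11 for EFL-1. In the WT lists, it ranked 34 for both EFL-1 and LIN-37, 36 for both DPL-1 and LIN-9, 42 for LIN-35, 43 for LIN-52, and 95 for LIN-54. By rank, every subunit stood nearer the top of its list in *lin-35* null. The *lin-35* null lists are shorter, which by itself makes rank numbers smaller. The percentile, which takes the length of the list into account, was also higher in *lin-35* null for all 6 subunits, by 0.28 for EFL-1 to 3.78 points for LIN-54, with a mean difference of 1.61. Over all DRM sites with both peaks, it was higher in *lin-35* null at 235 of 802 for DPL-1, 104 of 665 for EFL-1, 295 of 874 for LIN-54, 304 of 927 for LIN-52, 188 of 728 for LIN-37, and 455 of 986 for LIN-9. Sites where it was higher for all 6 were not counted. When each list was shortened to its highest 783 peaks, the mean difference was 5.15. Among all 1418 sites, ordered by the mean percentile over the lists of a genotype with 0 for a missing peak, *mes-2* stood at place 5 in *lin-35* null, with a mean of 99.5, and at place 39 in WT, with a mean of 97.9.

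The *set-21* promoter also had *lin-35* null peaks of all 6 subunits, but with the opposite shift in rank. In the *lin-35* null lists, the *set-21* peak ranked 11 for DPL-1, 19 for LIN-52, 27 for LIN-54, 28 for LIN-37, 35 for LIN-9, and 86 for EFL-1. In the WT lists, it ranked 8 for LIN-52, 9 for DPL-1, 10 for LIN-9, 11 for LIN-35, 12 for EFL-1, and 13 for both LIN-37 and LIN-54. The site stood at place 37 of the 1418 in *lin-35* null, with a mean percentile of 96.6, and at place 8 in WT, with a mean of 99.5, among the highest of every WT list. Percentiles were lower in *lin-35* null for all 6 subunits, with a mean difference of -2.90 points. The WT percentiles, from 99.4 for LIN-37 to 99.7 for LIN-52, left little room for a rise, since the highest peak has 100. Sites where the percentile was lower for all 6 were not counted. EFL-1 differed most, with a percentile of 89.1 in *lin-35* null against 99.5 in WT. Its E2F-DP partner DPL-1 differed least, with 99.0 in *lin-35* null against 99.5 in WT. Over all DRM sites with peaks in both genotypes, the median difference in percentile was below 0 for each subunit. It was -20.08 for EFL-1 (665 sites), -14.03 for LIN-37, -9.99 for DPL-1 (802 sites), -8.60 for LIN-54, -7.83 for LIN-52, and -1.49 for LIN-9. EFL-1 thus also differed most at the median site, but DPL-1 did not differ least there.

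At *mes-4*, DPL-1, EFL-1, and LIN-37 had no *lin-35* null peak, and 3 of 6 were left. Peaks of 1 to 5 subunits were found at 464 of the 1418 sites (32.7%). The remaining MuvB peaks were low. The study counts *mes-4* among genes where neither E2F-DP nor MuvB was detected without LIN-35. Its rule was not compared with the overlap of at least 1 bp used here. The *mes-4* peak ranked 1135 of 1674 for LIN-9, 1267 of 1388 for LIN-52, and 940 of 1225 for LIN-54 in *lin-35* null, that is at percentiles of 32.3, 8.79, and 23.3. In WT, all 7 subunits had a peak there, of middle height. Its WT ranks lay between 637 for LIN-37 and 882 for EFL-1, with 709 and 713 for LIN-54 and LIN-9, 743 for LIN-35, 752 for DPL-1, and 756 for LIN-52, at percentiles from 57.6 for DPL-1 to 69.9 for LIN-37. With 0 for the missing subunits, the mean percentile was 10.7 in *lin-35* null, at place 868 of the 1418 sites, and 65.0 in WT, at place 721. The WT mean was close to the median of all DRM sites, 65.8. For the subunits with a peak in both genotypes, the difference in percentile was -33.3 points for LIN-9, -58.2 for LIN-52, and -45.7 for LIN-54, with a mean of -45.7. For LIN-52, this sets the *lin-35* null peak against the higher of 2 WT peaks. Its percentile was 8.79 in *lin-35* null against 27.1 for the lower WT peak, which lies nearer, and with the nearest WT peak in place of the highest, the mean difference was -32.4. Peaks of exactly these 3 subunits were left at 57 sites (4.02%), and at least 3 MuvB subunits without either E2F-DP subunit at 139 sites (9.8%). The count at *mes-4* depended on how deep into the lists peaks were read. After the weakest 25% of the peaks of every list were dropped, only LIN-9 still had a *lin-35* null peak, and with each list shortened to 783 peaks, no subunit did. At *mes-2* and *set-21*, all 6 remained under both settings.

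**Figure D1:**
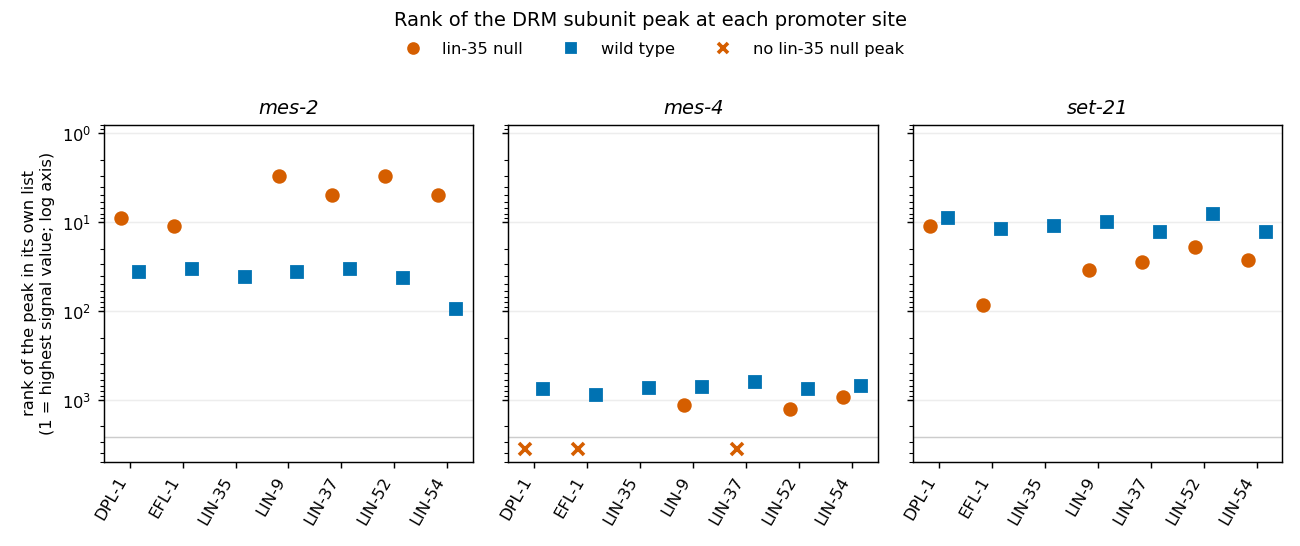
Rank of the DRM subunit peak at the promoter sites of *mes-2*, *mes-4*, and *set-21* in its own list (vertical log axis, 1 at the top), with *lin-35* null as circles to the left of WT as squares and a cross where a subunit has no *lin-35* null peak. LIN-35 has WT values only. The *lin-35* null circles lie above the WT squares at *mes-2*, from rank 3 to 11, below them at *set-21*, from 11 to 86, and at or beyond rank 940 for the 3 subunits left at *mes-4*.

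For every subunit, the signal value of *set-21* was below that of *mes-2* in *lin-35* null and above it in WT. At *mes-2*, they lay from 6487 for LIN-37 to 12839 for EFL-1 in *lin-35* null and from 8332 for LIN-35 to 15954 for LIN-54 in WT. The *mes-2* DPL-1 peak had a signal value of 10370 in *lin-35* null and 11027 in WT, and the LIN-54 peak 11067 in *lin-35* null and 15954 in WT. LIN-9 and LIN-37 also had lower values in *lin-35* null. The other subunits had higher ones, with 12839 in *lin-35* null against 11424 in WT for EFL-1 and 11963 against 11120 for LIN-52. Without a shared scale, these higher values do not show more binding, and the study's quantitative PCR found less of most subunits there. At *set-21*, the signal values lay from 4112 for LIN-37 to 9929 for DPL-1 in *lin-35* null and from 13259 for LIN-37 to 29498 for LIN-54 in WT. The *mes-4* values were far lower in both genotypes. The LIN-54 peak there had 580 in *lin-35* null and 2039 in WT, the LIN-52 peak 457 in *lin-35* null and 1099 in WT, and the LIN-9 peak 427 in *lin-35* null and 1374 in WT. Over all sites with peaks in both genotypes, the median log2 ratio of *lin-35* null to WT signal values lay below 0 for each subunit, from -1.33 for LIN-54 to -0.39 for EFL-1. Since the scale may differ between lists, the ratio at each gene was set against this median. The *mes-2* ratios were above the median for all 6 subunits, by 0.48 for LIN-37 to 0.80 for LIN-54 on the log2 scale, without being extreme. Relative to the number of sites, they stood between place 231 of 802 for DPL-1 and place 261 of 728 for LIN-37. The *set-21* ratios were below the median for all 6, with differences from the median of -0.37 for DPL-1 to -1.50 for EFL-1. The *mes-4* ratios of the 3 subunits left there were also below it, with differences of -0.49 for LIN-54 to -0.75 for LIN-52, when the highest WT peak of each subunit was used, whose summit lay 139 to 170 bp away. For LIN-52 the sign depended on that choice. Its signal value was 457 in *lin-35* null against 289 for the lower WT peak, whose summit lay 61 bp away, and with the nearest WT peak at every site the difference from the median was 1.16 for LIN-52. LIN-9 and LIN-54 had no second WT peak. With either choice, *set-21* had a lower ratio than *mes-4* for LIN-9, LIN-52, and LIN-54, although its peaks stayed high in the *lin-35* null lists. In WT, its signal value was 14.9 times that of the highest *mes-4* peak for LIN-9, 17.9 times for LIN-52, and 14.5 times for LIN-54. The *mes-4* ratios to the highest WT peak are limited from below, since the lowest *lin-35* null peak had a signal value of 295 for LIN-9, 415 for LIN-52, and 447 for LIN-54, and no log2 ratio below -2.22, -1.41, and -2.19 could have been listed there.

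**Figure D2:**
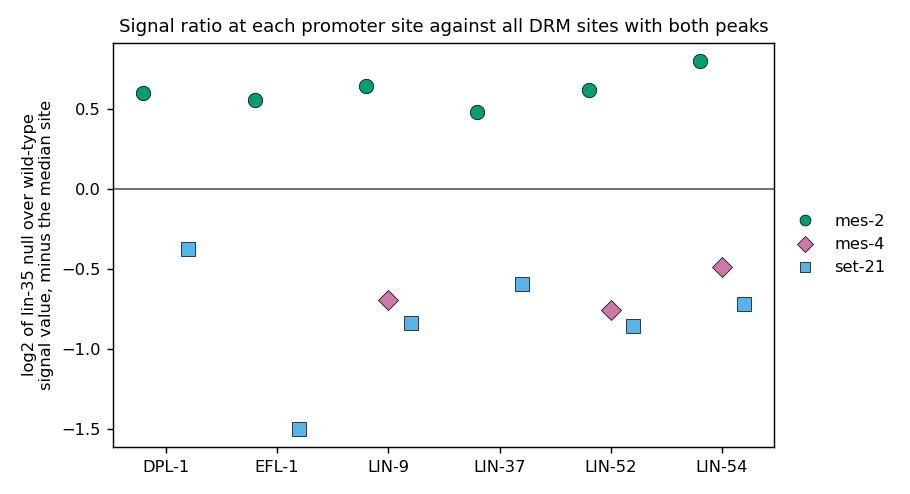
Log2 ratio of *lin-35* null to WT signal value at each promoter site, taken from the highest WT peak there, minus the median of that ratio over all DRM sites with both peaks, for each subunit. Points above 0 have a higher ratio than the median site, which is itself below 0 on the log2 scale for each subunit. *mes-2* lies from 0.48 to 0.80 and *set-21* from -1.50 to -0.37. *mes-4*, drawn for its 3 remaining subunits, lies from -0.75 to -0.49, where LIN-52 is above 0 with the nearest WT peak instead.

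The summit of every peak lies at the middle of its fixed width, so summits can be compared between lists of different width. In ce10, the WT LIN-35 peak of *mes-2* runs from 14383617 to 14383906 on chromosome II, that of *set-21* from 4390512 to 4390801 on chromosome IV, and that of *mes-4* from 13437500 to 13437789 on chromosome V. Distances from its summit are given toward higher coordinates. At *mes-2*, the 6 *lin-35* null summits lay 1 to 3 bp from it and the WT summits 0 to 2 bp. At *set-21*, the *lin-35* null summits lay from -9 to 3 bp and the WT summits from 0 to 3 bp. Peaks of both genotypes thus had nearly the same middle at both genes.

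The *mes-4* promoter differed from both in this respect. Its 3 *lin-35* null summits lay at 155 bp for LIN-52, 158 bp for LIN-9, and 161 bp for LIN-54, within 6 bp of each other, whereas the highest WT peaks of the 7 subunits had summits from -12 to 16 bp. The *lin-35* null LIN-9 peak runs from 13437488 to 13438117 on chromosome V, and so still covers the WT LIN-35 summit. In WT, EFL-1, LIN-37, and LIN-52 each had a second, lower peak at the site, with summits at 214, 196, and 216 bp, 199 to 202 bp from their higher ones. The signal values of these lower WT peaks were 303 for EFL-1, 252 for LIN-37, and 289 for LIN-52, against 788, 1371, and 1099 for the higher peaks of the same subunits. The *lin-35* null LIN-52 summit lay 139 bp from the higher and 61 bp from the lower WT summit of LIN-52, on the side between them. DPL-1, LIN-35, LIN-9, and LIN-54 had 1 WT peak each at the site.

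Shifts of this size were uncommon. Over all DRM sites with peaks in both genotypes, the median distance between the *lin-35* null and WT summits was 13 bp for LIN-9, 10 bp for LIN-52, and 11 bp for LIN-54. A distance at least as large as at *mes-4* was found at 3.65% of the sites for LIN-9, 2.48% for LIN-52, and 2.86% for LIN-54. All 3 summits moved by more than 100 bp to the same side at 19 of the 842 sites (2.26%) with all 6 of these peaks. Among the 53 sites with the same 3 *lin-35* null subunits as *mes-4* and WT peaks of all 3, this was so at 2, *mes-4* and 1 more. At least 3 of the 7 WT lists had several peaks at 55 of the 1418 sites (3.88%), of which *mes-4* was 1. With only *lin-35* null peaks counted whose summit lay within 100 bp of the WT LIN-35 summit, an alternative chosen after the summits were seen, *mes-4* had none of 6, and *mes-2* and *set-21* kept all 6.

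**Figure D3:**
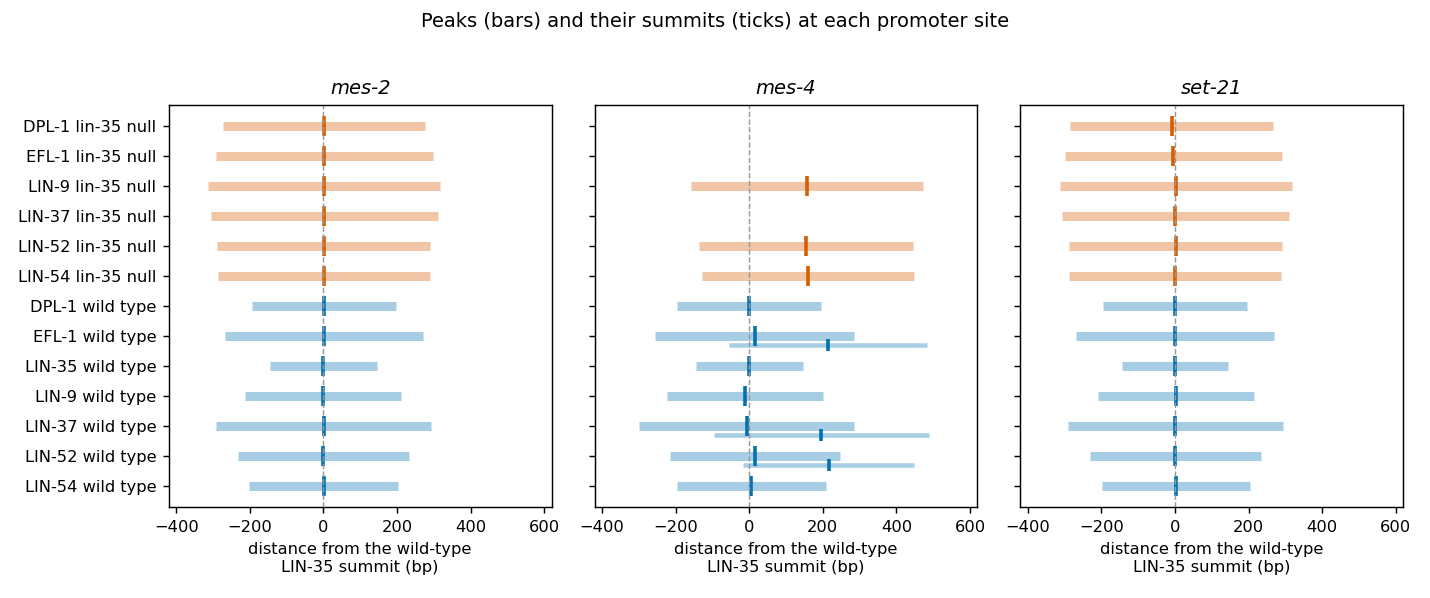
Peaks (bars, to scale) and summits (ticks) of the 6 *lin-35* null lists (upper rows) and the 7 WT lists (lower rows) at each promoter site, against the distance in bp from the WT LIN-35 summit. Thin bars below a row are the second, lower WT peaks at *mes-4*. All summits lie within 9 bp of the LIN-35 summit at *mes-2* and *set-21*, whereas the 3 *lin-35* null summits at *mes-4* lie 155 to 161 bp from it.

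**Figure D4:**
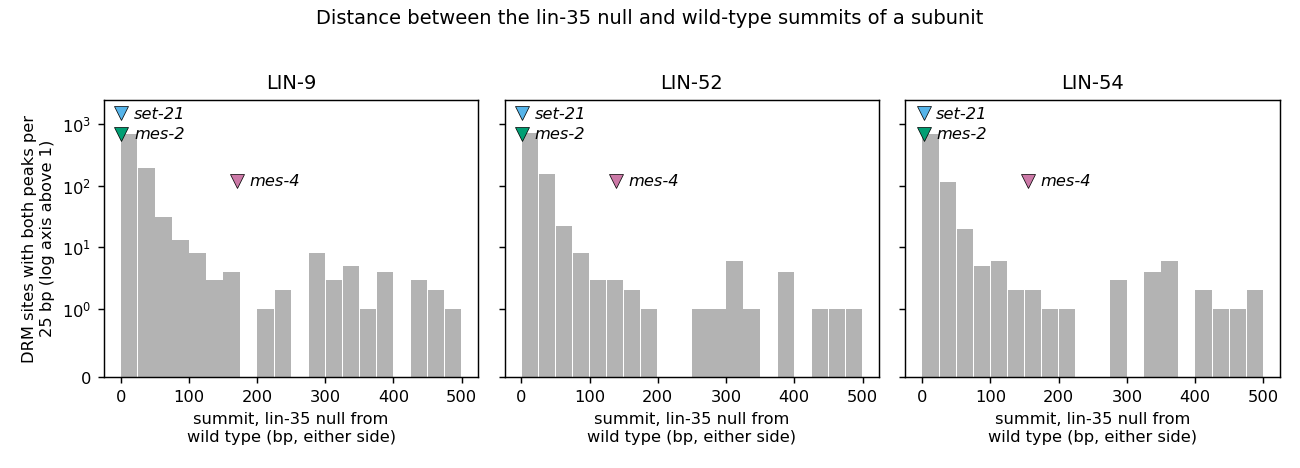
Number of DRM sites (vertical axis, log above 1) by the distance between the *lin-35* null and WT summits of LIN-9, LIN-52, and LIN-54 in 25 bp steps, with the distances at *mes-2*, *mes-4*, and *set-21* marked by triangles whose height has no meaning. The *mes-4* distances are 170, 139, and 155 bp, and 5, 3, and 2 sites with distances of 500 bp or more are not drawn.

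The surroundings of the promoters differed too. No other peak of any of the 13 lists had its summit within 10 kb of the *set-21* site, as at 546 of the 1418 DRM sites (38.5%). Near *mes-2*, all 6 *lin-35* null lists and all 7 WT lists had a peak with its summit 6335 to 6556 bp away, at a DRM site in the bidirectional promoter of *nurf-1*, which encodes a subunit of a nucleosome remodelling complex, and *kbp-3*, which encodes a kinetochore protein. Unlike at *mes-2*, its percentiles were lower in *lin-35* null than in WT. In *lin-35* null, they were 3.70 for EFL-1, 12.6 for LIN-37, 30.8 for LIN-54, 36.6 for DPL-1, 52.3 for LIN-52, and 57.2 for the higher of its LIN-9 peaks. Its WT percentiles lay between 71.3 for EFL-1 and 81.7 for LIN-54. Lower percentiles in *lin-35* null were usual, with a median difference over all DRM sites with both peaks of -1.49 for LIN-9 to -20.08 for EFL-1. The study counts *kbp-3* among genes where neither E2F-DP nor MuvB was detected without LIN-35, unlike the peaks listed here. Next to *mes-4*, the 4 MuvB subunits profiled each had a WT peak, with summits 2272 to 2283 bp from that of LIN-35, at low percentiles from 5.47 for LIN-52 to 23.3 for LIN-37. No *lin-35* null list had a peak there, and neither did the WT lists of DPL-1, EFL-1, and LIN-35. It lies outside the DRM sites, and no gene was assigned to it here.

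The 3 genes were also read beside other genes of histone methylation. A list of 41 such genes was drawn up from their known roles, with earlier results of these data in view, and 14 of them, *mes-2*, *mes-4*, and *set-21* included, had a promoter DRM site. Of these, 7 had *lin-35* null peaks of all 6 subunits, 7 had 1 to 5, and none had 0. Over all 1111 promoter DRM sites, 519 (46.7%) had all 6 and 209 had none. Without *mes-2*, *mes-4*, and *set-21*, 5 of 11 sites (45.5%) had all 6, so the share in the list was near that of all promoter sites. The median WT mean percentile was 69.2 in the list and 71.3 over all promoter sites.

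Among the partners of MES-2, *mes-6*, for a WD40 protein of the same complex, had a site in a bidirectional promoter with *tag-77*, and no promoter DRM site was assigned to *mes-3*. The *mes-6* site had all 6 *lin-35* null peaks, like *mes-2*, but of middle height, with percentiles of 53.2 for LIN-37 to 74.6 for LIN-52 in *lin-35* null and of 65.8 for DPL-1 to 77.8 for LIN-37 in WT. Among genes of lysine 36 methylation, *mrg-1*, which encodes a chromodomain protein that acts in the germline, had all 6 *lin-35* null peaks where *mes-4* had 3. Its percentiles for the 4 MuvB subunits profiled were higher in *lin-35* null than in WT, from 81.8 to 89.1 against 71.6 to 78.2, whereas its EFL-1 percentile was 36.9 in *lin-35* null and 76.4 in WT. No promoter DRM site was assigned to *met-1*, the gene for a further lysine 36 methyltransferase.

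Genes for the methylation of lysine 4 of histone H3 had anything from 1 to all 6 *lin-35* null peaks. The *set-2* site had all 6 *lin-35* null peaks, at percentiles of 82.5 for EFL-1 to 95.8 for LIN-9 in *lin-35* null, each above its own WT value, and was, beside *mes-2*, the other site of the list where all 6 were higher. SET-2 is the catalytic subunit of the worm COMPASS complex. The *set-16* site, of an MLL-like methyltransferase gene, had all 6 as well, with EFL-1 at a percentile of 21.1 in *lin-35* null and 74.2 in WT. The *ash-2* site, for a further COMPASS subunit, had 5, without EFL-1, and *dpy-30*, for another, had only LIN-9. The *set-17* site had the same 3 *lin-35* null peaks as *mes-4*, of LIN-9, LIN-52, and LIN-54, at percentiles of 50.4, 19.9, and 19.8. Its WT percentiles were higher than those of *mes-4*, from 85.9 for DPL-1 to 91.9 for LIN-54, and its *lin-35* null summits lay -10 to 21 bp from the WT summits, unlike at *mes-4*. The arginine methyltransferase gene *prmt-1* also had these 3 subunits in *lin-35* null, at percentiles of 15.1 to 26.5, with summits -14 to 14 bp from WT.

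The other genes of the list with a site were *set-1*, which encodes the enzyme for the first methyl group on lysine 20 of histone H4, and the SET domain genes *set-9* and *set-26*. The *set-1* site had all 6 *lin-35* null peaks, with percentiles of 33.5 for LIN-37 to 74.2 for DPL-1. The *set-26* site had 5, without EFL-1, and *set-9* had only LIN-9. Over the list, 9 of the 14 sites (64.3%) had a *lin-35* null DPL-1 peak, against 62.4% of all promoter DRM sites, and 7 (50.0%) an EFL-1 peak, against 52.3%. A LIN-37 peak was found at 9 (64.3%), against 60.4%. LIN-52 and LIN-54 peaks were found at 12 each (85.7%), against 73.8% for LIN-52 and 71.1% for LIN-54, and LIN-9 peaks at all 14, against 78.1%. EFL-1, with the shortest list, was the subunit least often found in the list and over all promoter sites.

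**Figure D5:**
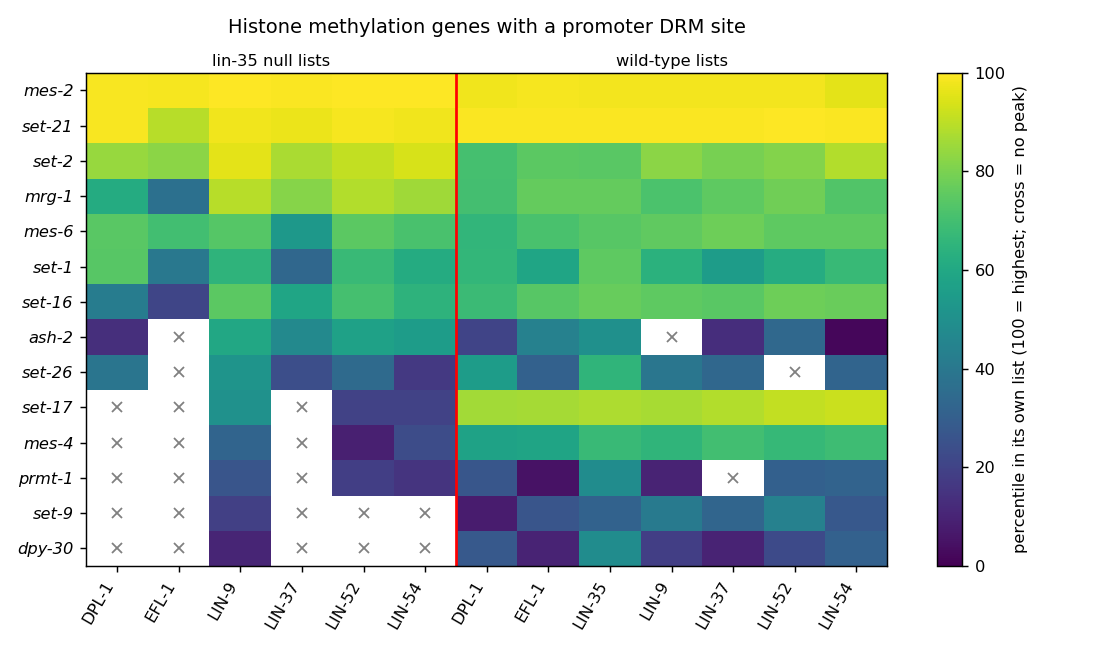
Percentile of the highest peak of each list (columns, *lin-35* null left of WT) at the promoter DRM sites of 14 histone methylation genes (rows, ordered by the mean *lin-35* null percentile with 0 for a missing peak). Lighter is higher and a cross marks no peak; *mes-2* and *set-21* are high in all lists, and *mes-4* has 3 of 6 *lin-35* null peaks.

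The promoter sites most like each gene were found by the mean absolute difference in percentile over the 13 lists, with 0 for a missing peak, among the 1111 promoter DRM sites. Nearest to *mes-2* were *ego-2*, with a mean difference of 0.579 points, *cdc-48.1*, a gene for an AAA ATPase, with 0.750, and the bidirectional promoter of *rsr-1* and *sri-5*, with 0.882. All had 6 *lin-35* null peaks. Like *mes-2*, they had higher mean percentiles in *lin-35* null than in WT, with 99.4 against 97.3, 99.5 against 99.0, and 98.3 against 97.7. Nearest to *set-21* were *imb-3*, an importin gene, with 1.03, *emo-1*, a gene of the protein translocation channel, with 1.12, and the promoter of *Y48A6B.3* and *fipr-17*, with 1.25, again with all 6. Like *set-21*, they had lower mean percentiles in *lin-35* null than in WT, with 98.5 against 99.4, 98.2 against 99.98, and 97.2 against 99.2. Nearest to *mes-4* were *smc-6*, a gene for a chromosome maintenance protein, with 3.23 and 2 *lin-35* null peaks, *K03H4.2*, with 3.28 and 2, and the promoter of *F43D9.3* and the small heat shock gene *sip-1*, with 3.88 and 3. These distances rank sites and were not tested. Since sites were picked by their percentiles in both genotypes, the choice favours differences like those of the gene.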

How the data were processed

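Reads had been aligned to ce10 by Bowtie 1.1.2, a version given in the submitters' processing notes, and the SPP peak caller, with input as control, and the IDR procedure at 1% had given the peaks. The deposited signal value of each peak, in 1 list per subunit and genotype, was made by the authors from all libraries of that list. Site positions and gene assignments, but no values, were taken from the study's supplementary tables. Ranks and percentiles were computed within each list, overlaps needed at least 1 bp, and neighbours were peaks with a summit within 10 kb. Python 3.11.15, numpy 2.4.6, and matplotlib 3.10.9 were used. The steps were tested on simulated lists. The genes named are the 3 members, genes sharing their promoters, all listed histone methylation genes with a promoter site, and the 3 most similar sites per member, and *nurf-1* and *kbp-3* were named after their values were seen. Members and lists were chosen with earlier results of these data known. No promoter sequence was used here, so motifs were not searched. Input libraries, coverage tracks, and LIN-35 ChIP in *lin-35* null were not analysed here.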

Additional observations from a re-analysis of the deposited data

How the results depend on the processing

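Of 52 alternatives, 38 were called unchanged. Counts had to stay within 1.5 times, percentile differences within a counting interval, and signal ratios had to use the same WT peak. The counting interval comes from 95% binomial intervals of percentiles as shares of their lists and measures no spread between replicates. The nearest WT peak could not differ from the highest at *mes-2* and *set-21*, or for LIN-9 and LIN-54 at *mes-4*. A direction was reversed by 1 alternative. That was the LIN-52 signal ratio at *mes-4*, -0.75 on the log2 scale from the median site, which became 1.16 with the WT peak nearest to the *lin-35* null summit in place of the highest, an alternative chosen after seeing the data. At *mes-4*, the 3 *lin-35* null subunits became 1 when the weakest 25% of peaks were dropped, 0 with lists shortened to 783 peaks, and 0 with summits required within 100 bp of the LIN-35 summit, also chosen after seeing the data. The mean percentile difference at *mes-4*, -45.7, was -37.4 among DRM sites, -30.7 among peaks shared by both genotypes, and -32.4 with the nearest WT peak, and could not be computed with shortened lists. At *mes-2*, 1.61 became 2.14 without the weakest 25%, 5.15 with shortened lists, 2.57 among DRM sites, and 3.73 among shared peaks. At *set-21*, -2.90 became -3.87 without the weakest 25% and -3.65 among DRM sites. With a window of 5 kb, the 14 neighbouring peaks of *mes-2* became 0. No paired analysis was possible because the lists hold no replicate values, and for the same reason no replicate could be left out. The planned search for motifs was not run, since no promoter sequence was used. Depth is unknown, so whether a missing *mes-4* peak lies just below a list's threshold cannot be read from these lists.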
